A study of Mus musculus with 12 samples.

Results

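Cd200, the 3 Cd200 receptors Cd200r1, Cd200r3 and Cd200r4, and the 5 inhibitory myeloid receptors Pirb, Lilrb4a, Sirpa, Siglece and Cd300a were followed in bone marrow cells cultured with indole-3-propionic acid (IPA). These 9 genes were taken by symbol from the 54532 genes of the count table, and all 9 passed the filter on low counts that left 14894 genes to test. They were chosen by name, with no threshold, but with earlier results on their counts in the 3 groups known, so the changes of the 9 genes describe these libraries and their p-values are no independent support. IPA is an indole that gut bacteria make from tryptophan, and the study asked how it affects the generation of myeloid-derived suppressor cells.

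All 12 libraries were made from wild-type C57BL/6 bone marrow cells grown for 5 days in medium with GM-CSF and IL-6, cytokines that drive myeloid differentiation and that the vehicle cultures received too. There were 4 libraries with vehicle (0.1 DMSO as labelled), 4 with 10 µM IPA and 4 with 50 µM IPA, and the compound was given again with fresh medium, on day 3 by the labels, whereas the study's methods give a change every 2 days. The labels name no sort, so a library holds all cells of its culture. The study's text describes lower viability of the cells at the higher dose, and viability was not analysed here. The labels do not say whether the 4 libraries of a group came from separate mice or cultures, so p-values measure the spread between these libraries, which may be technical. For flow cytometry of this culture assay, the study names biological replicates and a repeated-measures test. It does not say whether the RNA libraries were related in that way. Library totals ran from 20451312 to 28038612 counted reads.

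Cd200 is a membrane glycoprotein of the immunoglobulin superfamily that binds Cd200r1 on myeloid cells, and Cd200r1 passes an inhibitory signal through the adaptors Dok2 and Dok1. Cd200r3 and Cd200r4 are related receptors of the activating type, which have short tails and work with the adaptor Dap12 (gene Tyrobp), and Cd200r3 is known from basophils and mast cells. Pirb, Lilrb4a, Sirpa, Siglece and Cd300a carry inhibitory motifs (ITIMs) in their tails, which Src-family kinases such as Lyn phosphorylate and which then recruit phosphatases, chiefly Shp-1 (Ptpn6) and Shp-2 (Ptpn11).

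Cd200 and its receptors are neighbours. On GRCm38 (GENCODE M21) Cd200r1 lies at chr16:44765736-44794978 on the plus strand, Cd200r4 at chr16:44811733-44839150 (plus), Cd200r3 at chr16:44943678-44981380 (plus) and Cd200 at chr16:45382135-45409053 (minus). The stretch from the start of Cd200r1 to the far end of Cd200 spans 643318 bases. Of the other members, Pirb (chr7:3711409-3720391) and Siglece (chr7:43651070-43660161) lie on the minus strand of chromosome 7. Lilrb4a (chr10:51490956-51496611), Sirpa (chr2:129592835-129632228) and Cd300a (chr11:114890041-114904654) lie on plus strands.

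The promoters of Cd200r4, Cd200r3 and Cd200 are shown because these 3 genes rose at 50 µM, and because those of Cd200r4 and Cd200r3 resemble each other. Each is the 250 bases before the start of the gene in RefSeq (GRCm38.p6), written in the direction of transcription, at chr16:44820478-44820727 (plus), chr16:44943428-44943677 (plus) and chr16:45409054-45409303 (minus). Capitals mark bases that are identical between Cd200r4 and Cd200r3 in their best local alignment and, in Cd200, a GC box (GGGCGG).
Cd200r4: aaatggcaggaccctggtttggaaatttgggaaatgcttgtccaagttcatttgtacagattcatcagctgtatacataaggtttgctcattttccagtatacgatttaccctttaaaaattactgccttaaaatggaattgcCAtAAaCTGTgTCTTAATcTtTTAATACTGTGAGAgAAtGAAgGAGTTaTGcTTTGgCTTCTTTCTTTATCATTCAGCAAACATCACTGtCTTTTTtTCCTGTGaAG
Cd200r3: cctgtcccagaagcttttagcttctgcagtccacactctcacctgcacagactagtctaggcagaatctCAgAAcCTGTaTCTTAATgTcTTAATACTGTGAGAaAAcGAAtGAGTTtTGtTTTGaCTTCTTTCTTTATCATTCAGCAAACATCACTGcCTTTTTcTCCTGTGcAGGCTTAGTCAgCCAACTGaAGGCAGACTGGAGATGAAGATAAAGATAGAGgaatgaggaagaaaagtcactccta
Cd200: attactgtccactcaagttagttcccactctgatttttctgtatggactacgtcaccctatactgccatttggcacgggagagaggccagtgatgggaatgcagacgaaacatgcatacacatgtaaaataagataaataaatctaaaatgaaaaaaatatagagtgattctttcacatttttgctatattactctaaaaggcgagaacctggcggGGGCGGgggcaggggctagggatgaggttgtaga

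The alignment of Cd200r4 with Cd200r3 held 156 bases, of which 140 (89.7%) were identical. It covered the last 107 bases before the start of Cd200r4 and 49 bases after it, whereas in Cd200r3 it ended 25 bases before the start. The 4th gene of the family, Cd200r2, had no such stretch, with at most 10 identical bases in its best local alignment with either promoter. The RefSeq start of Cd200r4 falls inside the span that GENCODE gives the gene.

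Of the 9 members, 6 had a promoter in RefSeq's table (Cd200, Cd200r3, Cd200r4, Pirb, Siglece and Cd300a), and 6 motifs were looked for on both strands. A GATA motif, written AGATAA with A or T allowed as the first letter and A or G as the last, was found 3 times in the promoter of Cd200r3, once in that of Cd200r4 and once in that of Cd200, and 26.5% of 32851 promoters hold one. The GC box of Cd200 is a motif of 32.7% of promoters and does not overlap its GATA motif. Pirb held 1 match to GAGGAAGT, a PU.1 motif found in 2.4% of promoters. The core of the aryl hydrocarbon receptor element, GCGTG (28.2% of promoters), the AP-1 motif TGANTCA (6.7%) and the ATF4 motif TGATGNAA (3.5%) were in none of the 6. These matches describe letters in a window and say nothing about which factors act there.

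Levels were compared between genes as CPM, which are counts scaled to a common library size (here after TMM normalization over the 12 libraries), per kilobase of exon. With vehicle, Sirpa was by far the highest at 172 ± 6.26 CPM per kb (SD, n = 4), followed by Siglece at 55.8 ± 4.44 and Pirb at 48.3 ± 5.03, whose ranges overlapped. Cd200r1 stood at 31.1 ± 1.59 CPM per kb, Lilrb4a at 21.8 ± 14.1 and Cd200r4 at 21.2 ± 1.38, and the range of Lilrb4a overlapped both of its neighbours. Cd300a came next at 11.1 ± 0.949 CPM per kb, then Cd200r3 at 3.06 ± 0.129, and the ligand Cd200 was the lowest at 1.03 ± 0.137. At 50 µM the order changed in the middle, where Cd200r1 (41.9 ± 3.90 CPM per kb) came before Pirb (37.7 ± 3.00) with overlapping ranges. Cd200r3 (7.86 ± 0.844 CPM per kb) then reached the range of Cd300a (8.40 ± 0.552). The summed level of the 9 members, most of it Sirpa, had medians of 1493 CPM with vehicle, 1515 at 10 µM and 1504 at 50 µM.

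The 9 genes were compared in 3 pairs of groups, each on 8 libraries, with edgeR's quasi-likelihood test and p-values adjusted over the 14894 genes by the Benjamini-Hochberg method. A gene was called at an adjusted p under 0.05. The comparisons of 10 µM and of 50 µM with vehicle share the vehicle libraries. At 10 µM none of the 9 members was called, beside 61 of all genes (0.41%, of which 0.329% higher and 0.0806% lower). At an unadjusted p under 0.05 stood 6 of the 9 members and 1308 genes (8.78%), and the other tool run, DESeq2, called 1 member, Cd200r4. The 4 libraries at 10 µM lay above all 4 vehicle libraries for 3 members, Cd200, Cd200r1 and Cd200r4, and 3.56% of all genes did so, while 0 members lay below (2.56% of all genes). At 50 µM against vehicle 6 members were called, beside 13.5% of all genes. Of these, Cd200, Cd200r1, Cd200r3 and Cd200r4 were higher (7% of all genes), and Pirb and Cd300a were lower (6.5% of all genes). The same 4 lay above all vehicle libraries (9.45% of all genes), and 3 members, Pirb, Sirpa and Cd300a, lay below them (10.5%). At 50 µM against 10 µM 4 members were called, beside 15.4% of all genes, with Cd200 and Cd200r3 higher (7.52% of all genes) and Pirb and Sirpa lower (7.85%). Cd200r1 and Cd200r3 lay above all 10 µM libraries (9.41% of all genes), and Pirb, Sirpa and Cd300a below them (10.9%). The median log2 fold change of the 9 members was 0.05, 0.44 and 0.21 in the 3 comparisons, and that of all genes tested was -0.01, 0.01 and 0.01.

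**Figure D1:**
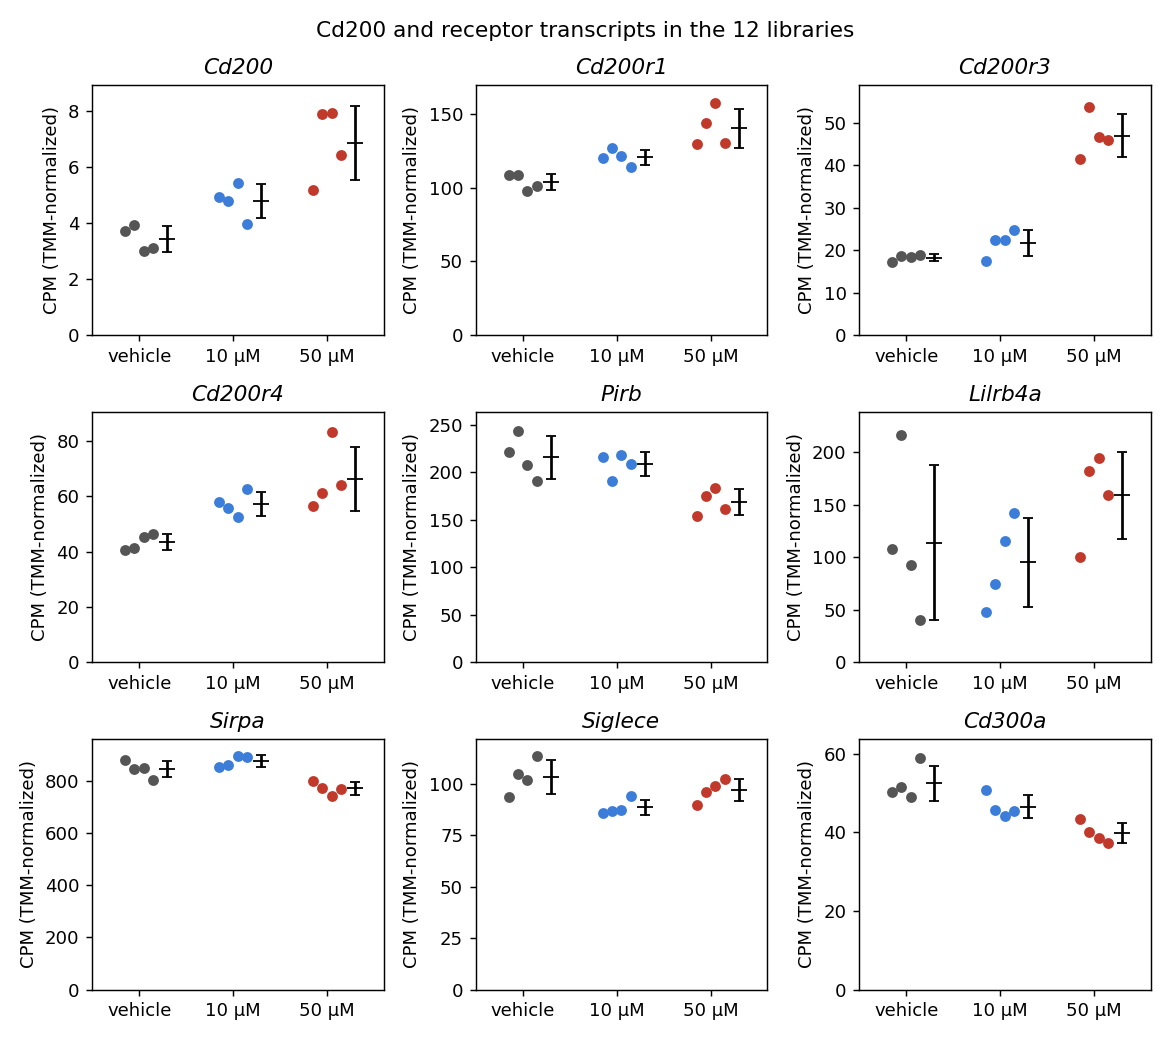
CPM (TMM-normalized, axes from 0) of the 9 genes in the 4 vehicle, 4 10 µM and 4 50 µM libraries (points, replicates 1 to 4 from left to right), with the mean and SD of each group as black bars. Cd200r3 lies between 41.6 and 53.8 CPM at 50 µM and at or below 24.8 CPM in the other 8 libraries, whereas Lilrb4a ranges from 40.5 to 216 CPM with vehicle alone.

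The ligand Cd200 was present at a low level and rose at 50 µM. Its 4 vehicle libraries held 3.70, 3.93, 3.00 and 3.10 CPM, the 10 µM libraries 4.92, 4.79, 5.41 and 3.98 CPM, and the 50 µM libraries 5.18, 7.87, 7.91 and 6.42 CPM. Each library at either dose was thus above every vehicle library, while the lowest 50 µM library fell inside the range at 10 µM. These levels rest on 67 to 215 reads per library. Cd200 rose at 50 µM (log2 fold change 1.00, SE 0.18, adjusted p = 0.00234 by edgeR), while the change at 10 µM was not called (0.48, SE 0.16, adjusted p = 0.356). The difference between the doses (0.52, SE 0.17, adjusted p = 0.0469) was lost when any 1 of 7 of the 8 libraries was left out, all but replicate 1 of 50 µM, with adjusted p between 0.0526 and 0.145. In unsorted cultures, more cells of a type and more RNA per cell cannot be told apart, nor can fewer cells and less RNA per cell.

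Cd200 is also carried by B cells, and B cell markers moved the same way. Of all genes, 0.41% were called at 10 µM, 8.78% had an unadjusted p under 0.05 there, and 7% were called higher at 50 µM. Of 8 B cell genes tested, 0 were called at 10 µM by edgeR or DESeq2 (2 at an unadjusted p under 0.05). At 50 µM against vehicle 6 were higher, and the median change of the 8 on the log2 scale was 1.03. One that rose was Cd79a, a chain of the B cell receptor, which went from 5.94 ± 1.89 CPM with vehicle to 11.7 ± 2.12 at 50 µM (log2 fold change 0.99, SE 0.21, adjusted p = 0.00764 by edgeR). The summed level of the 9 listed B cell genes lay between 52.8 and 71.0 CPM with vehicle, 68.1 and 87.7 CPM at 10 µM, and 88.1 and 130.3 CPM at 50 µM, and none of the 9 was at 0 in all libraries. Their part in the level of Cd200 was not tested.

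Cd200r1, the inhibitory receptor for Cd200, rose at 50 µM. Its vehicle libraries held 108, 108, 97.9 and 101 CPM, the 10 µM libraries 120.3, 126, 121 and 114 CPM, and the 50 µM libraries 129, 144, 157 and 130.3 CPM. The 3 groups did not overlap and were ordered by dose. The increase was called at 50 µM (log2 fold change 0.44, SE 0.08, adjusted p = 0.00284 by edgeR) and not at 10 µM (0.21, SE 0.06, adjusted p = 0.251). Between the doses the difference stood just outside the threshold in edgeR (0.22, SE 0.07, adjusted p = 0.0501) and passed it without replicate 1 (adjusted p = 0.0360) or replicate 4 (adjusted p = 0.0482) of 50 µM. With all 8 libraries it passed in DESeq2 (adjusted p = 0.0289), with an offset for exon length (adjusted p = 0.0302) and without the filter (adjusted p = 0.0362).

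Cd200r3, an activating-type relative, had the largest fold change of the 9 genes. It was at 17.2, 18.7, 18.4 and 18.9 CPM with vehicle, at 17.5, 22.4, 22.5 and 24.8 CPM at 10 µM, and at 41.6, 53.8, 46.7 and 45.9 CPM at 50 µM. The lowest 10 µM library fell among the vehicle libraries, and every 50 µM library was far above all others. The gene rose 2.59-fold against vehicle (log2 fold change 1.37, SE 0.09, adjusted p = 1.84e-06 by edgeR), the 9th smallest p of the 14894 genes, and 2.17-fold against 10 µM (1.12, SE 0.11, adjusted p = 4.22e-06). At 10 µM the change was 0.25 (SE 0.11, adjusted p = 0.508). Cd200r3 was called in both 50 µM comparisons under every alternative tried and with any single library left out.

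Of 10 tested markers of basophils and mast cells, in which Cd200r3 is known, 1 was higher and 1 lower at 50 µM against vehicle, beside 13.5% of all genes called. The one that rose was Gata2, a transcription factor of these lineages and of progenitors, at 46.1 ± 3.54 CPM with vehicle, 45.1 ± 5.52 at 10 µM and 101 ± 7.43 at 50 µM (log2 fold change 1.15, SE 0.08, adjusted p = 3.00e-06 by edgeR against vehicle). The one that fell was Kit, the stem cell factor receptor (-0.44, SE 0.10, adjusted p = 0.0101 by edgeR). The basophil protease Mcpt8 had means of 99.0, 93.4 and 76.0 CPM (50 µM against vehicle -0.37, SE 0.13, adjusted p = 0.0691 by edgeR), the mast cell protease Cpa3 40.0, 36.8 and 43.1 CPM (0.12, adjusted p = 0.499), and the IgE receptor chain Ms4a2 21.3, 16.2 and 18.8 CPM (-0.18, adjusted p = 0.452). Against 10 µM, 3 of the 10 genes were higher at 50 µM, beside 7.52% of all genes. These were Gata2, Hdc (0.43, SE 0.07, adjusted p = 0.000862 by edgeR) and Prss34 (0.52, SE 0.12, adjusted p = 0.00771). Neither Hdc (0.13, adjusted p = 0.318) nor Prss34 (0.27, adjusted p = 0.180) was called at 50 µM against vehicle. At 10 µM against vehicle Hdc stood at -0.30 (adjusted p = 0.217) and Prss34 at -0.25 (adjusted p = 0.561). The summed level of all 13 listed genes lay between 452 and 536 CPM with vehicle, 365 and 486 CPM at 10 µM, and 489 and 598 CPM at 50 µM, and the connective-tissue mast cell protease Mcpt4 was at 0 in all 12 libraries.

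Cd200r4, the other activating-type relative, rose at 50 µM and lay above vehicle at 10 µM. It was at 40.6, 41.3, 45.3 and 46.3 CPM with vehicle, at 57.7, 55.7, 52.5 and 62.6 CPM at 10 µM, and at 56.5, 61.2, 83.0 and 63.8 CPM at 50 µM. The vehicle libraries lay below all 8 others, and the doses overlapped, with replicate 3 of 50 µM well above the rest. Cd200r4 rose at 50 µM (log2 fold change 0.62, SE 0.11, adjusted p = 0.00278 by edgeR). At 10 µM the difference of 0.40 (SE 0.08) had an adjusted p of 0.0554, the smallest of the 9 members at this dose, and it passed the threshold with DESeq2 (adjusted p = 0.000835) and without replicate 4 of vehicle (0.43, adjusted p = 0.0250 by edgeR). The doses differed by 0.21 (SE 0.10, adjusted p = 0.183), and by 0.09 without replicate 3 of 50 µM.

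As a share of the summed level per kb of the 4 Cd200 receptor genes, Cd200r1 made up 55.8% ± 2.75 with vehicle and 50.9% ± 1.90 at 50 µM (SD, n = 4). Cd200r4 made up 38.1% ± 2.46 and 39.0% ± 2.57, and Cd200r2 0.656% ± 0.301 and 0.515% ± 0.260. Cd200r3 made up 5.49% ± 0.217 with vehicle, 5.36% ± 0.728 at 10 µM and 9.58% ± 1.16 at 50 µM, where its range of 8.13% to 10.9% lay above all other libraries.

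Between Cd200r1 and Cd200, the annotation places 9 protein-coding genes in all, counting those 2, and the 5 that are not members did not move together. Ccdc80, which lies between Cd200r3 and Cd200 and encodes a secreted matrix protein, had a larger change at 50 µM against vehicle than any of the 4 members there. It was at 30.7 ± 9.16, 52.4 ± 3.48 and 111 ± 12.9 CPM in the 3 groups (50 µM against vehicle 1.86, SE 0.18, adjusted p = 3.32e-05 by edgeR). Btla, an inhibitory receptor of lymphocytes, fell (-0.46, SE 0.14, adjusted p = 0.0433). Slc35a5 (-0.13, SE 0.08, adjusted p = 0.343) and Atg3 (-0.14, SE 0.07, adjusted p = 0.182) were not called, nor was Cd200r2 (0.26, SE 0.53, adjusted p = 0.798), which lies between Cd200r4 and Cd200r3 and averaged 0.638 CPM with vehicle.

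**Figure D2:**
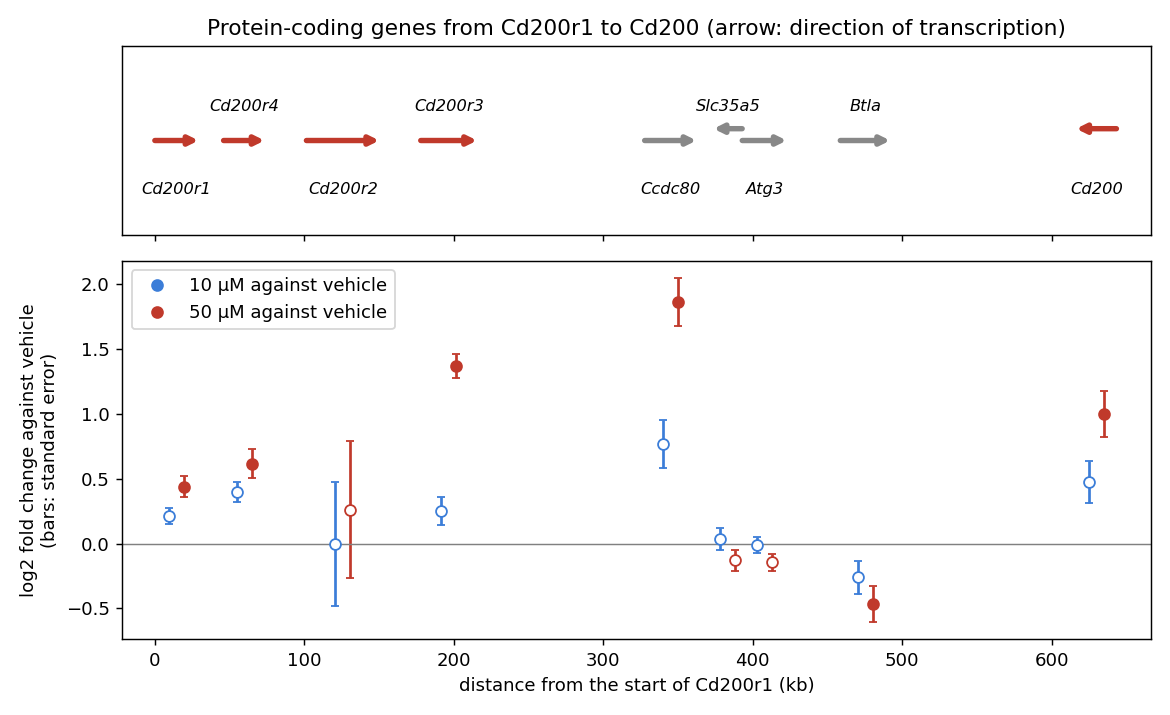
Upper panel, the 9 protein-coding genes from Cd200r1 to Cd200 by distance in kb from the start of Cd200r1, with arrows for the direction of transcription and Cd200 family genes in red; lower panel, log2 fold change against vehicle at 10 µM (blue) and 50 µM (red), bars for the standard error, filled where the adjusted p was under 0.05. Cd200r1, Cd200r4, Cd200r3, Ccdc80 and Cd200 are filled above 0 at 50 µM, Btla is filled below 0, and Cd200r2, Slc35a5 and Atg3 are open.

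Pirb, the paired immunoglobulin-like receptor that binds class I MHC molecules and Nogo, fell at 50 µM. It was at 221, 244, 208 and 191 CPM with vehicle, at 216, 191, 218 and 209 CPM at 10 µM, and at 154, 175, 184 and 161 CPM at 50 µM. The 50 µM libraries lay below the other 8, and the vehicle and 10 µM groups overlapped. The log2 fold change was -0.35 against vehicle (SE 0.09, adjusted p = 0.0172 by edgeR) and -0.30 against 10 µM (SE 0.07, adjusted p = 0.00846), and -0.05 at 10 µM (SE 0.08, adjusted p = 0.928). The call against vehicle was lost without replicate 1 (adjusted p = 0.0512) or replicate 4 (adjusted p = 0.0594) of 50 µM, whereas that against 10 µM held with any library left out. Of the 50-base stretches of its exons, 34.0% also occur in other genes, among them Gm14548, Pira2 and Lilra6, so reads may be shared with these paralogs and the values are uncertain to that extent.

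Sirpa, the receptor for the "do not eat me" ligand Cd47, had its lowest levels at 50 µM. It was at 879, 847, 849.6 and 804 CPM with vehicle, at 854, 859, 896 and 891 CPM at 10 µM, and at 799, 773, 741 and 768 CPM at 50 µM. The 50 µM libraries were the lowest 4 of the 12. The difference was not called against vehicle (log2 fold change -0.13, SE 0.06, adjusted p = 0.218 by edgeR), and against 10 µM it was -0.18 (SE 0.05, adjusted p = 0.0355). That call was lost without replicate 2, 3 or 4 of 10 µM or of 50 µM, with adjusted p between 0.0558 and 0.109. With all 8 libraries it was also lost without the filter (adjusted p = 0.0774 by edgeR).

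Cd300a, an inhibitory receptor for phosphatidylserine and phosphatidylethanolamine, fell at 50 µM. It was at 50.4, 51.5, 48.9 and 59.0 CPM with vehicle, at 50.8, 45.6, 44.3 and 45.4 CPM at 10 µM, and at 43.4, 40.0, 38.6 and 37.3 CPM at 50 µM. Replicate 1 of 10 µM lay among the vehicle libraries, and the 50 µM libraries were below all others. The log2 fold change was -0.39 at 50 µM against vehicle (SE 0.08, adjusted p = 0.00828 by edgeR), -0.17 at 10 µM (SE 0.08, adjusted p = 0.567) and -0.22 between the doses (SE 0.08, adjusted p = 0.0596). The last passed the threshold without replicate 1 of 50 µM (-0.26, adjusted p = 0.0398) and, with all 8 libraries, in DESeq2 (adjusted p = 0.0375) and with an offset for exon length (adjusted p = 0.0438).

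Siglece, a receptor for sialic acids, was not called in any comparison. It was at 93.3, 104, 102 and 113 CPM with vehicle, at 85.9, 86.8, 87.3 and 93.8 CPM at 10 µM, and at 89.7, 96.0, 98.8 and 102 CPM at 50 µM. All 3 groups overlapped, and the 10 µM libraries were mostly the lowest. The log2 fold changes were -0.22 at 10 µM (SE 0.07, adjusted p = 0.294 by edgeR), -0.09 at 50 µM (SE 0.08, adjusted p = 0.524) and 0.13 between the doses (SE 0.07, adjusted p = 0.191). The value at 50 µM was -0.04 without replicate 4 and -0.14 without replicate 1 of vehicle.

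Lilrb4a, an inhibitory receptor of the leukocyte immunoglobulin-like family, differed more between libraries of 1 group than between groups. It was at 107, 216, 92.2 and 40.5 CPM with vehicle, at 47.8, 74.4, 116 and 142 CPM at 10 µM, and at 100.5, 182, 194 and 159 CPM at 50 µM. The groups overlapped, and the highest vehicle library exceeded the lowest 5.32-fold. The log2 fold change was -0.26 at 10 µM (SE 0.43, adjusted p = 0.927 by edgeR), 0.49 at 50 µM (SE 0.35, adjusted p = 0.402) and 0.75 between the doses (SE 0.25, adjusted p = 0.0581). Without replicate 2 of vehicle the first turned to 0.25 (adjusted p = 0.956) and the second rose to 0.99 (adjusted p = 0.0289), and the third passed the threshold without replicate 4 of 10 µM (1.01, adjusted p = 0.00993) or replicate 1 of 50 µM (0.91, adjusted p = 0.0241). Of its 50-base stretches, 47.2% occur in other genes, chiefly Gm49339, which overlaps 1846 of its exonic bases on the same strand, and Lilr4b. Its reads are therefore uncertain.

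The level of Lilrb4a varied with that of nuclear long non-coding RNAs. Malat1 was at 112, 221, 78.9 and 35.3 CPM in vehicle replicates 1 to 4, and Xist at 246, 478, 196 and 92.0 CPM. At 10 µM Malat1 was at 49.5, 69.8, 81.6 and 125 CPM and Xist at 113, 170.5, 236 and 280 CPM. In both groups the libraries fell into the same order for Lilrb4a, its paralog Lilr4b, Malat1, Xist and Neat1. At 50 µM the order of Lilrb4a was shared by Lilr4b and Neat1, while Malat1 and Xist had replicates 2 and 3 exchanged. Over the 12 libraries, log2 CPM of Lilrb4a had a Pearson r of 0.986 with Xist and 0.965 with Malat1 (Spearman's rho 0.986 and 0.965), 0.962 and 0.916 without the 2 libraries farthest from the median, and 0.991 and 0.956 once group means were removed. All these values come from the same libraries. With log2 CPM of Malat1 as a covariate, an alternative chosen after seeing the data, the log2 fold changes of Lilrb4a were 0.11 (adjusted p = 0.680 by edgeR), 0.10 (adjusted p = 0.583) and -0.31 (adjusted p = 0.394) in the 3 comparisons. What sets nuclear RNA apart between libraries was not tested.

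**Figure D3:**
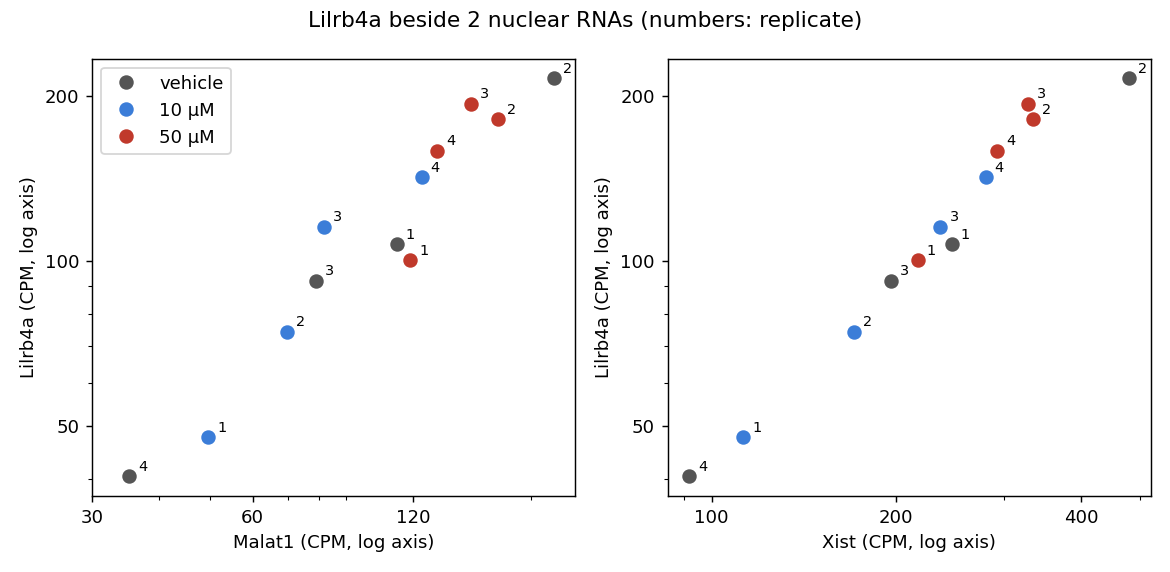
CPM of Lilrb4a against that of Malat1 (left) and Xist (right) in the 12 libraries, all axes logarithmic, with points coloured by group and numbered by replicate. The points of the 3 groups run along a shared diagonal from vehicle replicate 4 (Lilrb4a at 40.5 CPM) to vehicle replicate 2 (216 CPM), and the groups do not separate.

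The other members went less closely with these RNAs. With Malat1 over the 12 libraries, r was 0.467 for Cd200, 0.433 for Cd200r1, 0.529 for Cd200r3, 0.208 for Cd200r4 and -0.59 for Cd300a. For Pirb it was -0.0659, and 0.708 once group means were removed. For Sirpa it was -0.272, and 0.494 once group means were removed. For Siglece it was 0.0528, and 0.615 without the 2 libraries farthest from the median. With Malat1 as a covariate, the same 6 members as without it were called at 50 µM against vehicle, 2 (Cd200r1 and Cd200r4) at 10 µM, and 1 (Cd200r3) at 50 µM against 10 µM.

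**Figure D4:**
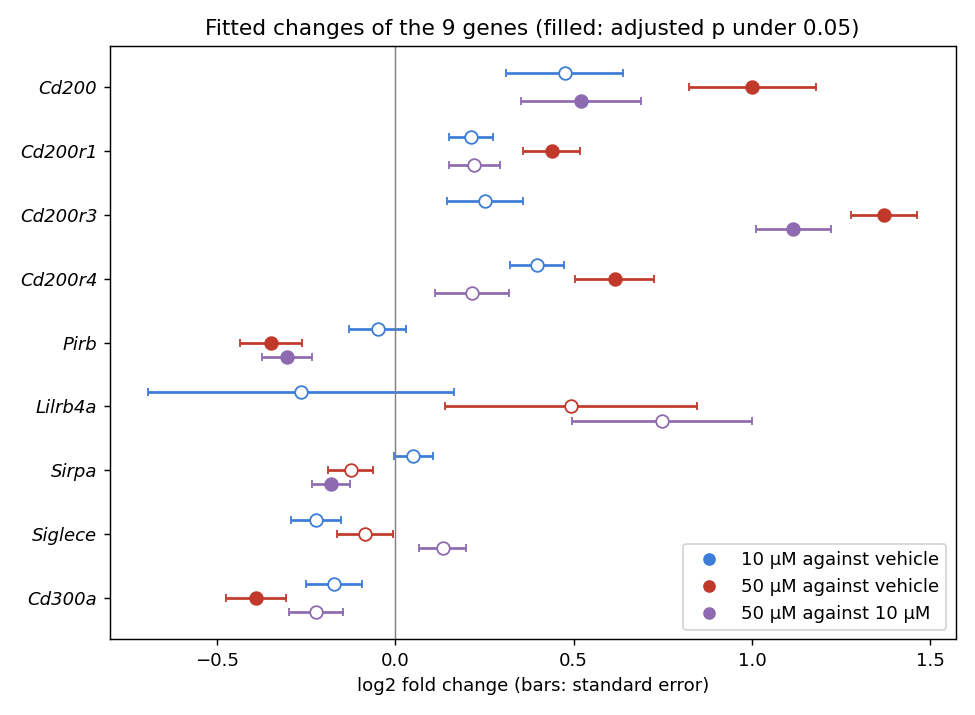
Log2 fold change of the 9 genes at 10 µM against vehicle (blue), 50 µM against vehicle (red) and 50 µM against 10 µM (purple), with standard errors as bars and filled points where the adjusted p was under 0.05. Cd200r3 stands farthest to the right at 1.37 and Cd300a farthest to the left among filled points at -0.39, and the bars of Lilrb4a are the widest.

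Among the 9 members, Cd200 and Cd200r1 went together most closely over the 12 libraries, with a Pearson r of log2 CPM of 0.969, and Cd200r3 and Cd300a were the most opposed at -0.867. These values cover all 3 dose groups and were not recomputed within them. Of all genes tested, the 2 most like Cd200 were Zfp639 (0.973) and Cd200r1, and the 2 most like Cd200r1 were Cd200 and Tnfrsf13c, the BAFF receptor of B cells (0.941). Cd200r3 was most like Ahcyl1 (0.984) and the kinase Pim3 (0.981), and Cd200r4 most like Cd84 (0.944) and the lectin Clec10a (0.943). Pirb was most like Dsel (0.92) and Las1l (0.902), Sirpa like AU020206 (0.962) and Creg2 (0.958), and Cd300a like Ccnf, which encodes cyclin F (0.962), and Tex261 (0.957). For Lilrb4a the 2 genes were Zc3h7a (0.987) and Xist, and Siglece was most like Ms4a2 (0.901).

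The ligands, signalling genes and adaptors of these receptors were read from lists of their own. Of 8 ligand genes tested, 0 were called at either dose against vehicle by edgeR or DESeq2, and 2 at each dose had an unadjusted p under 0.05, beside 8.78% and 27.9% of all genes. Their median log2 fold change at 50 µM was -0.05, and 2 were lower at 50 µM than at 10 µM, beside 7.85% of all genes. These 2 were ligands of Pirb, B2m, the light chain of class I MHC (-0.27, SE 0.09, adjusted p = 0.0466 by edgeR), and Rtn4, which encodes Nogo (-0.28, SE 0.06, adjusted p = 0.00648). The class I MHC genes H2-K1 (0.08, adjusted p = 0.419 by edgeR) and H2-D1 (-0.07, adjusted p = 0.583) were not called there. Mag, another listed ligand, was not called either and had a change above 0 (0.32, SE 0.12, adjusted p = 0.0977). Cd47, the ligand of Sirpa, averaged 495 CPM with vehicle and 440.0 CPM at 50 µM (-0.16, SE 0.07, adjusted p = 0.137).

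Of 11 genes that carry or shape the inhibitory signal, 0 were called at 10 µM by edgeR or DESeq2 (1 at an unadjusted p under 0.05), 1 was higher and 1 lower at 50 µM against vehicle, and 2 were higher and 2 lower at 50 µM against 10 µM. Of all genes, 0.41%, 13.5% and 15.4% were called in the 3 comparisons, and the counts of the lists that follow stand beside the same shares. The median log2 fold change of the 11 genes at 50 µM against vehicle was -0.01. Dok1, an adaptor downstream of Cd200r1, rose from 44.3 ± 5.49 CPM with vehicle to 62.7 ± 4.19 at 50 µM (0.51, SE 0.09, adjusted p = 0.00328 by edgeR), with no overlap. Lyn, the kinase that phosphorylates ITIMs, fell from 226 ± 17.0 to 178 ± 6.58 CPM (-0.34, SE 0.07, adjusted p = 0.00829). Between the doses Dok1 (0.44, adjusted p = 0.00366) and the kinase Fgr (0.18, adjusted p = 0.0335) were higher, and Lyn (-0.29, adjusted p = 0.00271) and Skap2, an adaptor that binds Sirpa (-0.24, adjusted p = 0.0194), were lower. At 50 µM against vehicle Dok2, the main adaptor of Cd200r1, stood at 0.20 (adjusted p = 0.0858), Inpp5d, which encodes the lipid phosphatase Ship-1, at -0.20 (adjusted p = 0.0763) and Ptpn6 at -0.07 (adjusted p = 0.562).

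Of 4 adaptor genes of the activating receptors, 1 was called, Syk, the kinase that binds their phosphorylated motifs, which was lower at 50 µM than with vehicle (-0.27, SE 0.08, adjusted p = 0.0479 by edgeR). Tyrobp, which encodes the partner of Cd200r3 and Cd200r4, averaged 361 CPM with vehicle and 415 CPM at 50 µM (0.21, SE 0.11, adjusted p = 0.236). Fcer1g, the partner of paired Pira receptors, averaged 391 and 409.9 CPM (0.07, SE 0.09, adjusted p = 0.651).

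Activating relatives of the members moved both ways. Of 16 tested, 1 was higher at 10 µM, 2 were higher and 4 lower at 50 µM against vehicle, and 2 were higher and 5 lower at 50 µM against 10 µM. The median log2 fold change was 0.15 at 10 µM and 0.05 at 50 µM against vehicle. Cd300ld and Cd300lb, activating relatives of Cd300a, rose by a log2 fold change of 0.55 each at 50 µM (SE 0.08, adjusted p = 0.000492 and 0.000617 by edgeR), and Cd300ld was also the one called at 10 µM (0.43, SE 0.07, adjusted p = 0.0375). Sirpb1c, Sirpb1a and Sirpb1b, activating relatives of Sirpa, were lower at 50 µM than with vehicle by -0.82 (SE 0.13, adjusted p = 0.000959), -0.67 (SE 0.16, adjusted p = 0.0161) and -0.57 (SE 0.14, adjusted p = 0.0183), and Pira2, the activating partner of Pirb, by -0.64 (SE 0.13, adjusted p = 0.0049).

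These 4 genes had higher means at 10 µM than with vehicle and the lowest at 50 µM. Sirpb1c averaged 47.9 ± 8.95 CPM with vehicle, 61.4 ± 3.25 at 10 µM and 27.0 ± 3.23 at 50 µM. The rise at 10 µM was not called (0.36, SE 0.11, adjusted p = 0.287 by edgeR), and the difference between the doses was -1.19 (SE 0.09, adjusted p = 4.44e-07). Against 10 µM, Sirpb1a was lower by -1.02, Pira2 by -0.94 and Sirpb1b by -0.86. Sirpb1 and Pira genes are families of near-identical copies, so reads may be split among them.

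**Figure D5:**
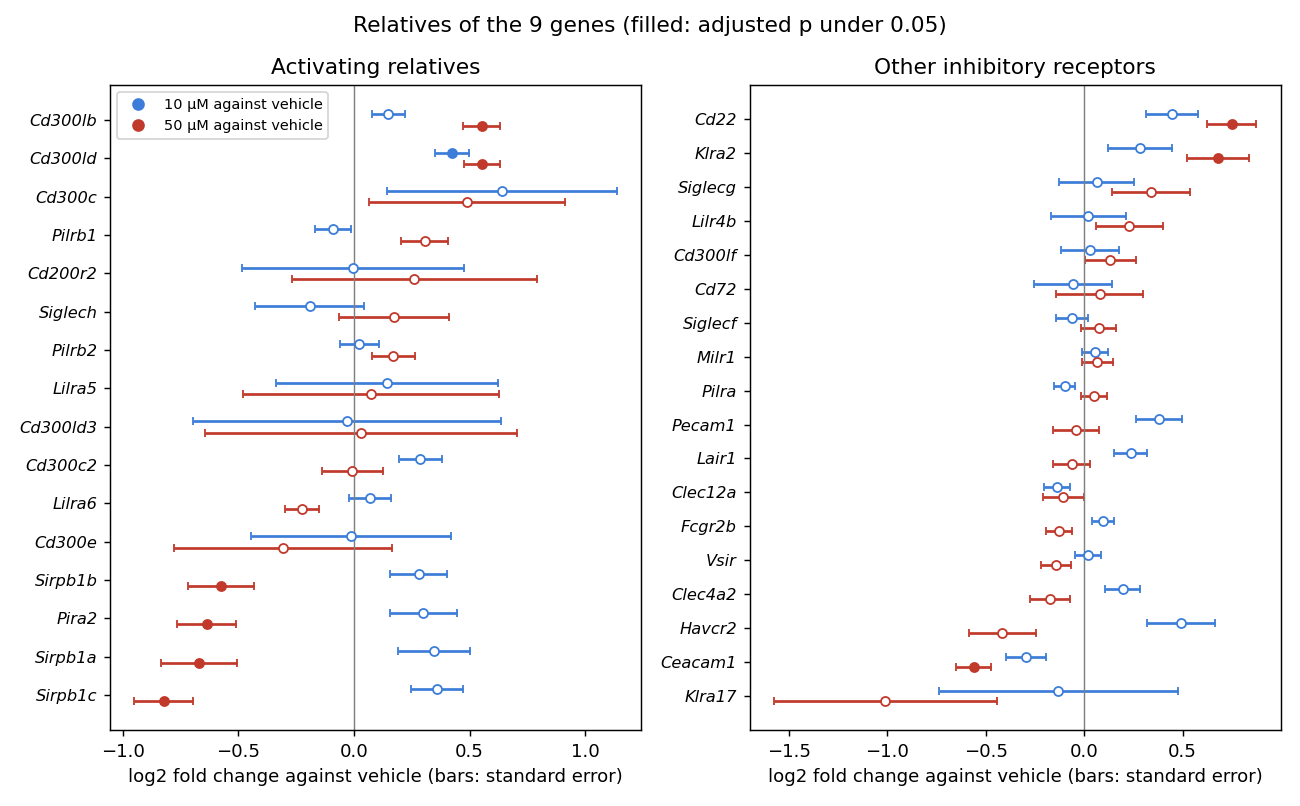
Log2 fold change against vehicle at 10 µM (blue) and 50 µM (red). The left panel holds the 16 activating relatives tested, and the right panel the 18 other receptors listed as inhibitory. Bars are standard errors, and filled points have an adjusted p under 0.05. Sirpb1c, Sirpb1a, Pira2 and Sirpb1b lie to the right of 0 at 10 µM and to the left at 50 µM, where they are filled, and Cd300lb and Cd300ld lie to the right at both doses.

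Of 18 other receptors listed as inhibitory, among them Lilr4b, 0 were called at 10 µM by edgeR or DESeq2 (6 at an unadjusted p under 0.05). At 50 µM 2 were higher and 1 lower against vehicle, and 1 was higher and 5 lower against 10 µM. Their median log2 fold change was 0.04 at 10 µM and 0.01 at 50 µM against vehicle. Cd22, an inhibitory Siglec of B cells, went from 6.58 to 8.82 CPM with vehicle to 12.0 to 14.4 CPM at 50 µM (0.75, SE 0.13, adjusted p = 0.00165 by edgeR), and Klra2, a Ly49-family receptor, from 8.45 ± 1.88 to 13.4 ± 1.46 (0.68, SE 0.16, adjusted p = 0.0119). Ceacam1, an adhesion receptor with ITIMs, fell from 174 ± 19.1 to 118 ± 9.83 CPM (-0.56, SE 0.09, adjusted p = 0.00107). Between the doses Havcr2, which encodes Tim-3 (-0.91, SE 0.17, adjusted p = 0.00173), Pecam1 (-0.42, SE 0.08, adjusted p = 0.0026), and Clec4a2 (-0.37, SE 0.08, adjusted p = 0.0043) were among the 5 that were lower, and the one that was higher was Klra2 (0.39, SE 0.12, adjusted p = 0.0414).

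Lists of myeloid cell markers were read in the same way, beside the same shares of all genes called (0.41%, 13.5% and 15.4% in the 3 comparisons). The summed level of 13 neutrophil genes lay between 22476 and 31238 CPM with vehicle, 21303 and 24336 at 10 µM, and 16603 and 22276 at 50 µM, and 8 of the 13 were lower and 1 higher at 50 µM than with vehicle. The 6 monocyte genes summed to between 3433 and 4162 CPM with vehicle, 4683 and 5757 at 10 µM, and 2886 and 3759 at 50 µM, with 1 higher at 10 µM and 4 lower at 50 µM against vehicle. Of 10 macrophage genes, 3 were higher at 10 µM, and at 50 µM against vehicle 2 were higher and 2 lower. At 50 µM against 10 µM, where Pirb and Sirpa were called lower, 6 of the 6 monocyte genes were lower. So were 6 of the 10 macrophage genes (1 higher) and 6 of the 13 neutrophil genes (1 higher). Csf1r stands in both the monocyte and the macrophage list and was lower, so those counts share a gene. Of 10 dendritic cell genes, 3 were higher and 2 lower at 50 µM against vehicle, and of 8 eosinophil genes 1 was higher and 3 lower. No tested T or NK cell gene (5) or stromal and endothelial gene (5) was called against vehicle at either dose by edgeR or DESeq2, and at an unadjusted p under 0.05 stood 0 of the first and 2 and 1 of the second. The T cell gene Cd3e did not reach the filter, and the endothelial Cdh5 averaged 0.55 CPM with vehicle. The part of any of these cells in the levels of the 9 genes was not tested.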

How the data were processed

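RNA of cultured bone marrow cells was sequenced in 12 libraries after poly(A) selection with a stranded mRNA kit. The authors deposited raw read counts per Ensembl gene. They aligned the reads to mm10 (GRCm38) with HISAT2 2.2.1 and counted them with featureCounts 2.0.1, and the submitters' processing notes also name R 4.3.0 and DESeq2 1.40.2. The strand setting of the counting is not given in the sources used here. Groups and replicate numbers were taken from the labels. Since replicates 2 and 3 of 10 µM carry the same title, replicate 3 was identified from the name of its library. Totals lay between 20451312 and 28038612 reads, and no 2 libraries of a group were copies of each other.

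The 14894 genes that exceeded 0.5 CPM in 2 or more of the 12 libraries were tested on the deposited counts with edgeR 4.0.16 in R 4.3.3 (TMM, glmQLFit and glmQLFTest), for each pair of groups on its 8 libraries, with Benjamini-Hochberg adjustment and a threshold of 0.05. The standard error is the log2 fold change divided by the square root of the F statistic. The script was tested on simulated data. CPM values are TMM-normalized over the 12 libraries. Pearson's r was taken on log2 CPM with a prior count of 2 and is given without a p. Positions, exon lengths and 50-base stretches come from GENCODE M21 on GRCm38, and promoters from RefSeq (GRCm38.p6), aligned with Biopython 1.88 (match 2, mismatch -3, gap opening -6, gap extension -1). Plots were drawn with matplotlib 3.10.9.

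The members and the lists of ligands, signalling genes, relatives and cell markers were chosen with earlier results of these data known. Lists were written from general knowledge, and 8 of 28 activating relatives had no entry under their symbol in the table. The lists share a few genes, such as Csf1r and Pecam1. Named genes are the 9 members, at most 4 called genes per list and comparison by the size of the change, a few genes named whatever their value (Cd47, Ptpn6, Inpp5d, Dok1, Dok2, Tyrobp, Fcer1g and defining cell markers), and the 2 genes most like each member. Cd300lb, H2-K1, H2-D1 and Mag fall outside this rule and were chosen after their values were seen. Some genes that this rule names are not reported here. Neighbours on chromosome 16, Malat1, Xist, Neat1 and Lilr4b were added after their values were seen. Alternatives were DESeq2 1.42.0, its size factors in edgeR, no filter, all 12 libraries in 1 fit, a block for the replicate number, library offsets that remove a lowess trend with exon length (span 0.3), each library left out, and log2 CPM of Malat1 as a covariate, which was chosen after seeing the data. Same-numbered libraries did not deviate together (correlations of their deviations from the group means between -0.242 and 0.142), so the numbers were not taken as pairs.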

Additional observations from a re-analysis of the deposited data

How the results depend on the processing

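Of 405 values of the 9 genes under other settings, 360 kept their direction and their side of the threshold, 20 passed it newly, 21 no longer passed it and 4 changed direction. The 6 calls at 50 µM against vehicle held in every setting with all 8 libraries. At 10 µM the 61 genes called became 250 with DESeq2, 150 without the filter, 118 with all 12 libraries, 102 with the length offset and 414 with the Malat1 covariate. With 1 library left out they ranged from 4 (without replicate 2 of 10 µM) to 122 (without replicate 4 of vehicle). The members called at 10 µM went from 0 to 1, Cd200r4, with DESeq2, without the filter, with the length offset and without replicate 4 of vehicle, to 2 with the Malat1 covariate, and stayed at 0 elsewhere, so the range with 1 library left out was 0 to 1. At 50 µM against vehicle, leaving out 1 library gave 1248 to 2689 genes (2010 with all, 1248 without replicate 3 of vehicle and 1313 without replicate 2 of 50 µM) and 5 to 7 members. At 50 µM against 10 µM it gave 1604 to 2269 genes and 2 to 7 members. There the 4 members became 6 with DESeq2 (Cd200r1 and Cd300a added) and 7 with the length offset. Without the filter they became 5, with Cd200r1 and Lilrb4a gained and Sirpa lost (adjusted p = 0.0774 by edgeR). With the Malat1 covariate 1 member was called, while the genes called went from 2289 to 632. With a block for the replicate number, which does not pair the libraries, 3 genes were called at 10 µM, 1830 at 50 µM against vehicle and 2200 between the doses, with 0, 6 and 3 members. Cd200 (adjusted p = 0.0507) and Sirpa (0.0642) were lost and Lilrb4a (0.00183) gained in the last. Not every library correlated best with its own number. The log2 fold change of Pirb at 10 µM turned from -0.05 to 0.014 without replicate 2 of vehicle (range with 1 library left out -0.105 to 0.014), and that of Lilrb4a from -0.26 to 0.25 without replicate 2 of vehicle (range -0.55 to 0.25) and to 0.11 with the Malat1 covariate. Between the doses Lilrb4a turned from 0.75 to -0.31 with that covariate. Without the filter, edgeR gave every gene the shared trend of the spread between the doses, so the calls of that setting there rest on no gene's own spread. Otherwise the cause of these shifts was not tested. The low count of Cd200, at most 215 reads per library, and 4 libraries per group limit how small a change can be called.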
